A study of Phyllostachys edulis with 2 samples.

Results

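Calcium-dependent protein kinases (CDPKs) were followed across all cell groups of the moso bamboo (Phyllostachys edulis) basal root tip. The 3 genes described were PH02Gene41491, PH02Gene11937 and PH02Gene20500, out of 13 genes that the study's table of regulators by cell cluster assigns to the CAMK_CDPK family and out of 50936 genes counted. The other 10 genes of the family are described beside them. The genes of the table were selected on their expression by cluster in the same cells, so the levels below are a description of genes chosen for their pattern and carry no test. The family name rests on the study's annotation. Its gene descriptions call PH02Gene41491 a calcium-dependent protein kinase 15 after the closest match in Panicum hallii, and give PH02Gene11937 terms for calmodulin-dependent protein kinase activity, while PH02Gene20500 has the family name only. No protein sequence was used here, so the label was not checked against a kinase domain or calcium-binding sites.

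A CDPK carries a serine/threonine kinase domain and a calmodulin-like domain with EF hands in a single protein, so that the same molecule senses a calcium signal and phosphorylates its targets. The family occurs in plants and some protists, and is large in grasses. In Arabidopsis and rice, CDPKs are known to act on respiratory burst oxidases, ion channels and transcription factors of the abscisic acid response, and several act in roots under drought or salt. Most plant genomes also encode CBL-interacting protein kinases, which receive calcium signals through a separate sensor protein.

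Protoplasts were released with cell wall enzymes from basal root tips, the adventitious roots at the base of the bamboo culm, and captured in droplets for 3′ single-cell RNA-seq. Both libraries were biological replicates of the same condition, with no control or treated group, and the study's question was how the cell types of the root differ and develop. A cell barcode marks the droplet and a unique molecular identifier (UMI) marks the transcript molecule, so that amplified copies are counted once. Intact tissue without digestion was not analysed here.

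Replicate 1 held 36419750 UMIs in 7668 barcodes and replicate 2 held 42126823 UMIs in 7656 barcodes. Cells with more than 500 genes numbered 7653 and 7651, together 15304, with medians of 3130 and 3565 UMIs. Only 15 barcodes occurred in both libraries. The cells were clustered anew into 14 groups, and each of the 13 clusters of the study was matched to the group with the highest level of its marker genes. Cluster 0 and Cluster 5 were matched to the same group, and 2 groups had no match. Each group carries the number of its cluster from here on, and the shared group is called group 0. As background, the study assigned Clusters 0, 1, 5 and 10 to ground tissue, Cluster 9 to initial cells, Cluster 2 to transition cells, Cluster 6 to epidermis, Clusters 7, 8, 11 and 12 to root cap, and left Clusters 3 and 4 undefined. No cell type was assigned anew. The matches of Clusters 3 and 4 were close calls, with mean marker z-scores of 1.79 and 1.77 for the groups chosen, against 1.70 and 1.61 for the next group. PH02Gene45651 was used as a marker of both Cluster 1 and Cluster 5. The study's text lists this gene for Cluster 0, and a supplementary legend lists it for Cluster 5.

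Depth differed widely between the groups and moves with several results below. Cells of group 0 had medians of 969 UMIs in replicate 1 and 1049 in replicate 2, and those of group 1 had 1080.5 and 1179, whereas cells of group 6 had 9265 and 9925.5. Levels are therefore given as CPM, the count of a gene per 1000000 UMIs summed over a group and replicate. A group took part in the order of levels if both sums reached 100000 UMIs, which left 13 groups. The match of Cluster 12, with 40 cells, stayed out of it.

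As means of the replicates, all 3 genes had their highest CPM in group 0 and their lowest in group 10, both assigned by the study to ground tissue. In replicate 1 alone, PH02Gene20500 was higher in group 2 (520.0 CPM) than in group 0 (512 CPM). In that replicate PH02Gene41491 was lowest in the unmatched group of 123 cells (12.1 CPM), and PH02Gene11937 in group 8 (44.7 CPM). Over both libraries, 2316 UMIs were counted for PH02Gene41491, 8057 for PH02Gene11937 and 27609 for PH02Gene20500. The whole-library levels of the replicates were close, at 31.1 and 28.1 CPM for PH02Gene41491, 107 and 99.1 CPM for PH02Gene11937, and 359 and 345 CPM for PH02Gene20500. The highest and lowest groups hold for counts scaled by total UMIs and the 14 groups used here. Other scalings and clusterings changed the highest group of some of the genes. Some alternatives changed the lowest, or matched it to both Cluster 10 and Cluster 8 of the root cap, as given further on.

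PH02Gene41491 had 71.1 and 73.8 CPM in group 0 (151 and 176 UMIs), against 13.7 and 9.42 CPM in group 10 (5 and 3 UMIs). The 2 groups did not overlap, and the level was 5.20-fold higher in replicate 1 and 7.84-fold higher in replicate 2. Group 3 came next, with 50.5 and 47.1 CPM, below both values of group 0. The other 10 groups lay between 48.8 CPM for group 3 and 11.6 CPM for group 10 as means of the replicates, and group 8, assigned to root cap, had 14.8 and 10.7 CPM. In 8 of the 12 pairs of neighbours in this order, the ranges of the replicates overlapped. Groups 8 and 10 were among them, so the middle and the bottom of the order were not resolved.

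PH02Gene11937 had 190.3 and 195 CPM in group 0 (404 and 465 UMIs), against 68.4 and 18.8 CPM in group 10 (25 and 6 UMIs). Both replicates of group 0 were above those of every other group. The ratio to group 10 was 2.78 in replicate 1 and 10.4 in replicate 2, so that its size was poorly fixed by the few UMIs of the small group, where the exact Poisson intervals at 95% were 44.3 to 101 CPM and 6.91 to 41.0 CPM. Group 8 was as low, with 44.7 and 55.4 CPM. Between these ends the gene was nearly flat: 9 groups had means from 89.7 to 120.1 CPM, and the replicate ranges of 9 of the 12 neighbouring pairs overlapped.

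PH02Gene20500 had 512 and 489 CPM in group 0 (1088 and 1165 UMIs), against 175 and 163 CPM in group 10 (64 and 52 UMIs). The ratio was nearly the same in both replicates, 2.92 and 2.99. Group 2, assigned to transition cells, was not distinguishable from the highest group: it had 520.0 and 476 CPM, a range that includes both values of group 0, and it was the higher of them when replicate 2 was left out of the clustering. Group 7 had 402 and 411 CPM and group 3 only 176 and 214 CPM. The order was better resolved than that of the other members, with overlapping ranges in 3 of the 12 neighbouring pairs.

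**Figure D1:**
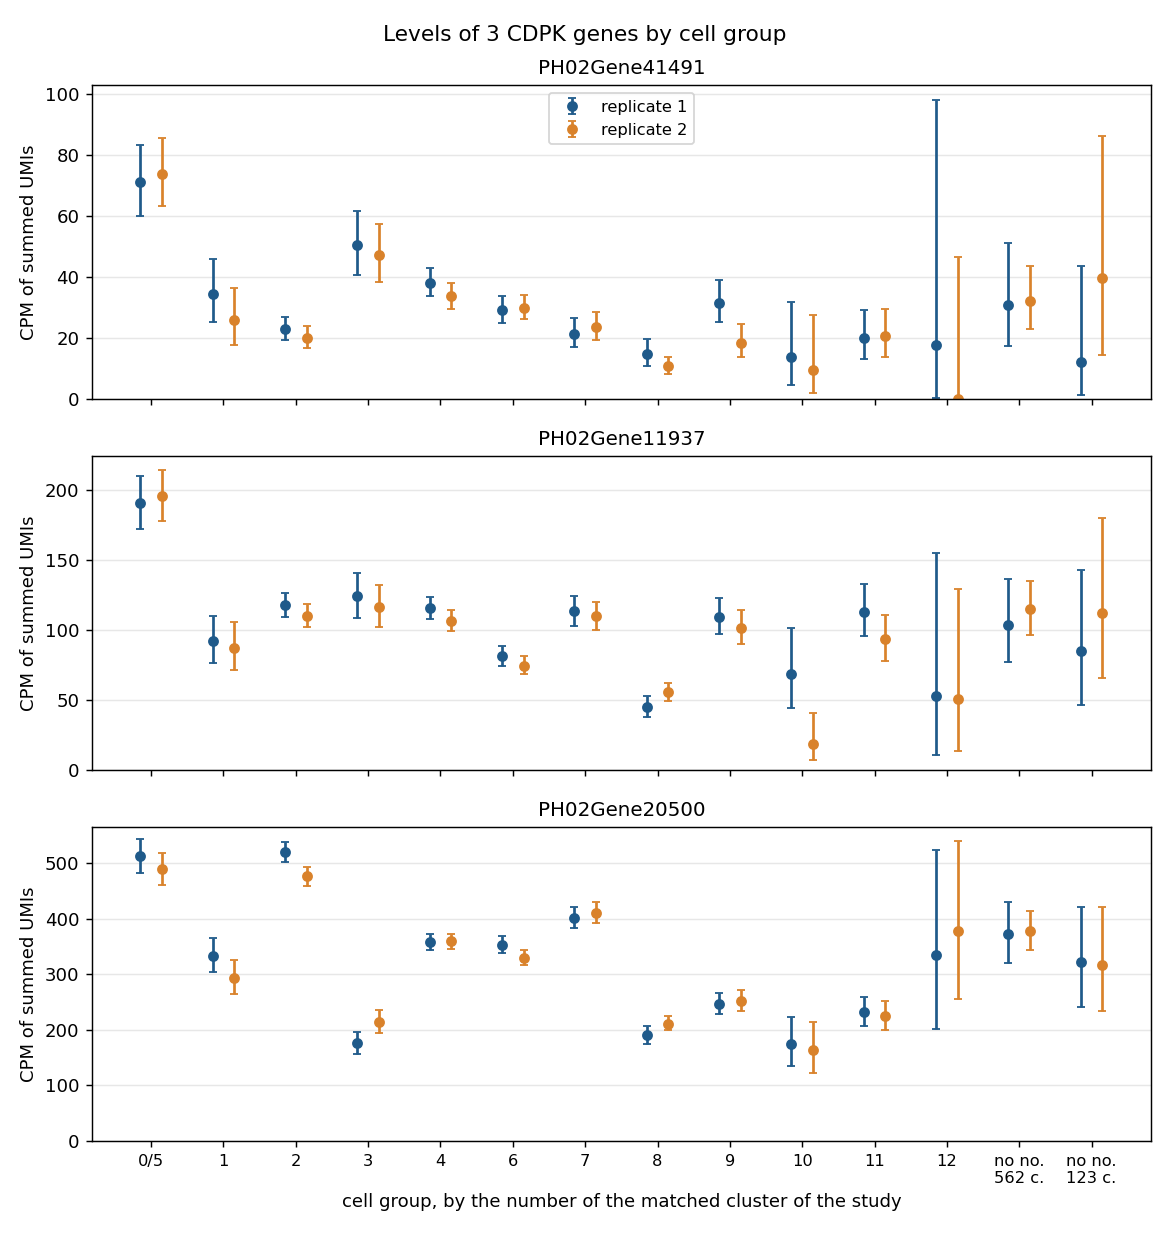
Level of each gene in CPM of summed UMIs (vertical axes, from 0) in the 14 cell groups, named by the matched cluster number of the study (0/5 is the group called group 0, and the last 2 groups have no number). Points are the 2 replicates and bars are exact Poisson intervals at 95%, which cover counting error only. PH02Gene41491 and PH02Gene11937 stand apart in the first group, while PH02Gene20500 is as high in group 2.

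As means of the replicates scaled by total UMIs, the members differed from each other in the second-highest group. Group 3 was second for PH02Gene41491 (48.8 ± 2.35 CPM, SD, n = 2) and for PH02Gene11937 (120.1 ± 5.21 CPM), and it was second from the bottom for PH02Gene20500 (195 ± 27.0 CPM). Group 2 was the reverse case, second for PH02Gene20500 and among the 4 lowest groups for PH02Gene41491 (21.4 ± 2.02 CPM). The second place of PH02Gene11937 was not resolved, as the replicate ranges of groups 3 and 2 overlapped. On the other scale given further on, group 2 was highest and group 7 second for both PH02Gene11937 and PH02Gene20500.

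Per cell, the picture is different, since cells of group 0 hold few UMIs of any gene. PH02Gene20500 had 0.562 UMIs per cell in group 0, 0.468 in group 10, 0.399 in group 1 and 4.15 in group 2. PH02Gene11937 had 0.217 UMIs per cell in group 0, 0.115 in group 10, 0.114 in group 1 and 1.01 in group 9. PH02Gene41491 had 0.0815 UMIs per cell in group 0, 0.0315 in group 10, 0.0382 in group 1 and 0.383 in group 3. Per cell, the members were thus above groups 10 and 1 and below the deeper groups named here. Less RNA per cell and less capture per cell cannot be told apart in these counts.

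Within the ground-tissue clusters, the level in group 0 was compared with that in group 10 and in group 1. A gene was counted as higher or lower where it differed at least 2-fold in both replicates. Against group 10, 3 of the 3 members were higher. Of the 25120 genes with at least 50 UMIs, 7.8% were higher and 25.4% were lower in this comparison, and nothing is read from the members' count because the clusters entered their choice. The median log2 difference was 2.42 for the members, 0.47 for the other 10 CDPK genes and -0.62 for all genes tested. Nothing is read from the order of these medians either, since the members and the family genes were chosen on these cells.

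Against group 1, a group of like depth, PH02Gene41491 and PH02Gene11937 passed the 2-fold limit, with log2 differences of 1.28 and 1.10. PH02Gene20500 did not pass it, at 0.62 in replicate 1 and 0.73 in replicate 2. The background was 2.78% of genes higher and 8.14% lower. In group 1, PH02Gene41491 had 34.5 and 25.8 CPM, PH02Gene11937 92.2 and 87.2 CPM, and PH02Gene20500 334 and 294 CPM, all below both replicates of group 0.

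A depth window chosen after seeing the data kept only cells with 1000 to 3000 UMIs, which brought the medians to 1284 and 1312 UMIs in group 0 and to 1343 and 1420.5 UMIs in group 1. In this window PH02Gene20500 had 563 and 533 CPM in group 0, against 343 and 303 CPM in group 1. PH02Gene11937 had 212 and 230.1 CPM, against 83.5 and 93.3 CPM. For PH02Gene41491 the values were 67.1 and 83.5 CPM, against 34.5 and 27.4 CPM. The differences from group 1 were thus as large among cells of like depth, with log2 values of 1.28 for PH02Gene41491, 1.32 for PH02Gene11937 and 0.77 for PH02Gene20500.

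Inside group 0, the levels of 2 members moved with depth. When its cells were ranked by UMIs and split into 3 equal parts, PH02Gene20500 had 389, 442 and 609.5 CPM in replicate 1 from the shallowest to the deepest part, and 381, 472 and 545 CPM in replicate 2. PH02Gene11937 had 145, 177 and 218 CPM in replicate 1, and 125, 186 and 231 CPM in replicate 2. PH02Gene41491 showed no such order, with 74.7, 79.0 and 64.7 CPM in replicate 1 and 41.7, 88.9 and 78.4 CPM in replicate 2. In group 1, whose cells covered a like range of depth, PH02Gene20500 had 338, 316 and 342 CPM in replicate 1 and 282, 263 and 317 CPM in replicate 2. The part of depth in the level of these genes was not tested.

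**Figure D2:**
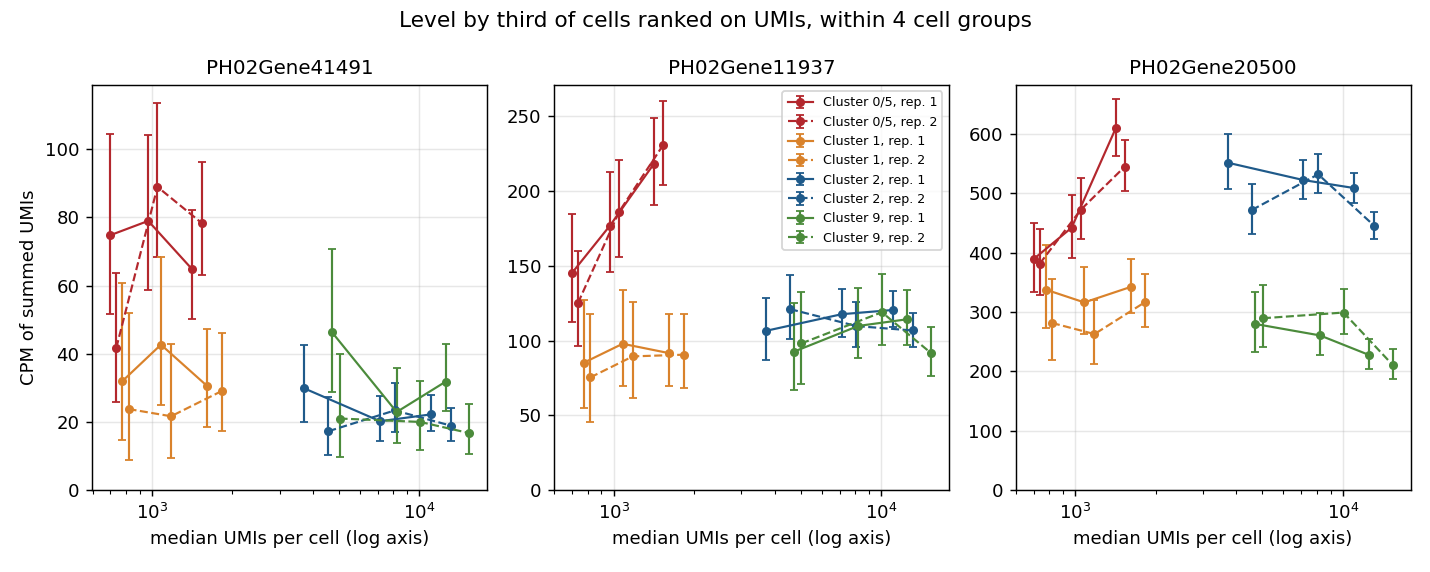
Level in CPM of summed UMIs (vertical axes, from 0) against the median UMIs per cell (log axis) of 3 equal parts of each group's cells, for groups 0 (0/5), 1, 2 and 9 in both replicates, with exact Poisson intervals at 95%. PH02Gene20500 and PH02Gene11937 are higher in the deeper cells of group 0, and are nearly level with depth in group 1.

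The members parted when Clusters 0 and 5 had a group each. At the finer clustering resolution of 1.0, the match of Cluster 5 held 1259 cells and that of Cluster 0 held 2676 cells, of which 96.3% and 96.0% came from the single group above. PH02Gene11937 had 236 and 254 CPM in the match of Cluster 5, against 162 and 148 CPM in the match of Cluster 0. PH02Gene20500 had 611 and 586 CPM, against 429 and 403 CPM. PH02Gene41491 went the other way, with 54.8 and 55.9 CPM in the match of Cluster 5, against 79.9 and 88.9 CPM in that of Cluster 0. No pair of ranges overlapped.

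Cells of the match of Cluster 5 were deeper, with medians of 1340 and 1345 UMIs, against 871 and 902.5 UMIs. Among cells with 1000 to 3000 UMIs, a limit again chosen after seeing the data, medians were 1443 and 1422 UMIs, against 1188 and 1224 UMIs. The separation remained in this window. PH02Gene11937 had 238 and 269.8 CPM in the match of Cluster 5, against 183 and 181 CPM in that of Cluster 0, and PH02Gene20500 had 631 and 601 CPM, against 466 and 435 CPM. PH02Gene41491 had 59.2 and 59.3 CPM, against 75.3 and 119.9 CPM, the last 2 from 42 and 77 UMIs. The highest group thus depended on the resolution, as PH02Gene41491 was highest in the match of Cluster 0, and the other 2 genes in the match of Cluster 5. The ratio of the highest to the lowest group of PH02Gene11937 was 6.67 at this resolution, against 4.42 with the 14 groups.

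**Figure D3:**
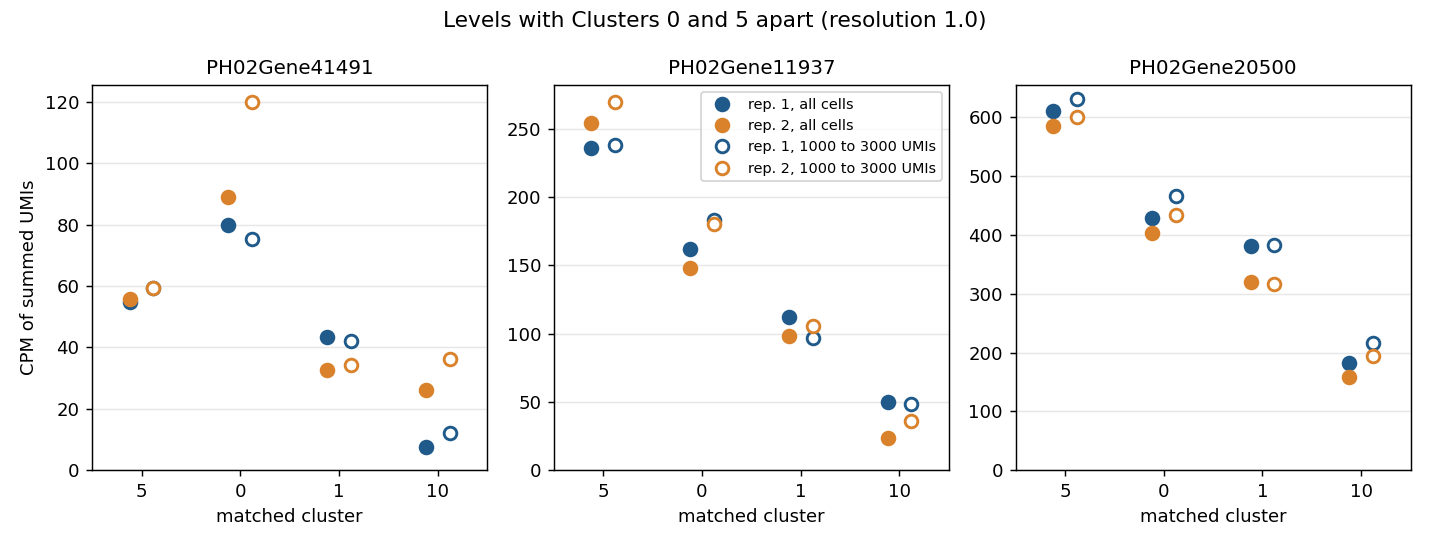
Levels in CPM of summed UMIs (vertical axes, from 0) in the groups matched to Clusters 5, 0, 1 and 10 at a clustering resolution of 1.0. Filled points are all cells and open points are cells with 1000 to 3000 UMIs, in both replicates. PH02Gene41491 is lower in the match of Cluster 5 than in that of Cluster 0, and PH02Gene11937 and PH02Gene20500 are higher there.

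The highest group of PH02Gene11937 and PH02Gene20500 also differed with the scaling. The trimmed mean of M-values (TMM) rescales each sum so that most genes keep their level between groups, and shifted all genes of group 0 by -0.38 and -0.35 on the log2 scale and those of group 2 by 0.45 and 0.42. On this scale PH02Gene41491 was still highest in group 0, at 54.7 and 57.7 CPM. PH02Gene20500 had 394 and 382 CPM in group 0 and was highest in group 2, at 709 and 639 CPM. Group 7, at 542 and 558 CPM, and group 6, at 459 and 456 CPM, also lay above group 0. PH02Gene11937 had 146 and 153 CPM in group 0 and 160.0 and 148 CPM in group 2, ranges that overlap. Its means in groups 7 and 9 were 150.6 and 149.9 CPM, against 149.4 CPM in group 0. As means of the replicates, group 10 was the lowest group of all 3 genes on both scales. The comparisons with groups 10 and 1 kept their direction in both replicates, since those groups were shifted alike.

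**Figure D4:**
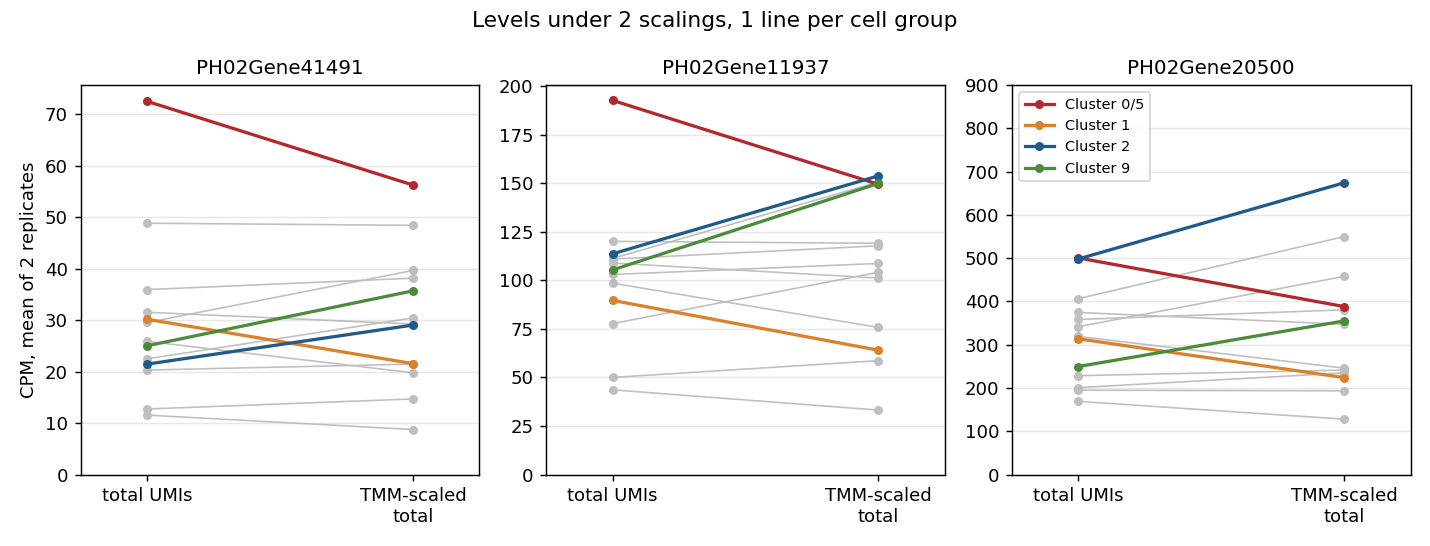
Mean CPM of both replicates (vertical axes, from 0) with total UMIs and with TMM-scaled totals, with a line for each of the 13 groups and 4 groups in colour. PH02Gene41491 stays highest in group 0 (0/5), while PH02Gene20500 is highest in group 2 and PH02Gene11937 becomes alike in groups 0, 2 and 9. With TMM-scaled totals group 7, not coloured, is level with these for PH02Gene11937 and above group 0 for PH02Gene20500.

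Against group 9, the initial cells, PH02Gene41491 was at least 2-fold higher in group 0 in both replicates, with log2 differences of 1.17 and 2.00 (background 34% of genes higher, 5.36% lower). With TMM-scaled totals the differences were 0.27 and 1.15, so that the call was lost. PH02Gene20500 had log2 differences of 1.05 and 0.95, and PH02Gene11937 of 0.80 and 0.94. Their means were 0.13 and -0.0035 with TMM-scaled totals, where the direction of PH02Gene11937 turned. The median over all genes tested was 0.74 in this comparison, close to the value of PH02Gene11937 at 0.87.

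Along the groups that the study placed from initial cells over transition cells towards root cap and epidermis, PH02Gene20500 had its highest level in the transition cells. It had 520.0 and 476 CPM in group 2, against 247 and 252 CPM in group 9, log2 differences of 1.07 and 0.92 (background 3.87% of genes at least 2-fold higher, 3.09% lower). Against group 11 of the root cap, with 232 and 225 CPM, the differences were 1.16 and 1.08 (5.38% higher, 21.2% lower). Against group 6 of the epidermis, with 353 and 329.8 CPM, they were 0.56 and 0.53 (2.62% higher, 7.03% lower). Only the difference from group 11 passed the 2-fold limit in both replicates. The direction was the same with TMM-scaled totals, at means of 0.92, 1.48 and 0.56. PH02Gene41491 and PH02Gene11937 did not pass the limit in any of these 3 comparisons.

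UMIs of the members were spread over many cells. Before thinning, 12.8% of cells had a UMI of PH02Gene41491, 32.5% of PH02Gene11937 and 59.8% of PH02Gene20500, and no cell held more than 5, 10 and 37 UMIs of them. Since these shares follow depth, each cell was thinned to 500 UMIs, which all kept cells reach, and the shares were then 2.16%, 5.04% and 16.1%. The largest thinned shares were 3.78% for PH02Gene41491 and 7.15% for PH02Gene11937, both in group 0, and 21.4% for PH02Gene20500 in group 2, with 20.1% in group 0.

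No cell type is known here to lack these genes, so the smallest thinned shares are given as the background. Cells of group 10 had medians of 1948.5 and 2497 UMIs before thinning. For PH02Gene41491, 0 of 144 and 0 of 106 cells of group 10 had a UMI after thinning. The approximate limit of 3 over the number of cells is 2.08% and 2.83%, and the exact upper bounds that follow are higher. In group 0 the shares were 4.09% and 3.47%, with exact binomial intervals at 95% of 3.25 to 5.06% and 2.72 to 4.35%, while the upper bounds of such intervals in group 10 were 2.53% and 3.42%, so the intervals overlapped in replicate 2. Before thinning, 7.51% and 7.76% of cells in group 0 had a UMI of this gene, against 3.47% and 2.83% of cells in group 10. The unmatched group of 123 cells also had none after thinning, but the exact upper bounds were 5.60% and 6.06%, above the shares in group 0. Before thinning, 3.1% and 8.5% of its cells had a UMI of this gene. Group 8 had 0.546% and 0.372% after thinning. PH02Gene11937 was at 2.43% in group 8 and PH02Gene20500 at 7.35% in group 3, their lowest.

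Joint detection in single cells was counted next. Over all groups and before thinning, 5.11% of cells in replicate 1 and 5.61% in replicate 2 had UMIs of all 3 genes, and 31.1% and 30.0% had none. After thinning, 20 cells of replicate 1 held both PH02Gene41491 and PH02Gene11937, 1.92 times the number expected from their shares within groups, whereas 7 cells of replicate 2 did, 0.842 times the number. The exact Poisson intervals at 95% of these ratios, which cover counting error only, were 1.17 to 2.97 and 0.338 to 1.73. PH02Gene41491 with PH02Gene20500 gave 0.879 (0.580 to 1.28) and 1.15 (0.781 to 1.63) times the expected number. PH02Gene11937 with PH02Gene20500 gave 1.05 (0.829 to 1.32) and 1.32 (1.04 to 1.64) times. The interval thus lay above 1 in 1 of the replicates for the first and the last pair, and included 1 in both for the other.

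The other 10 CDPK genes had other highest groups. On the scale of total UMIs, PH02Gene35961, PH02Gene06687, PH02Gene15191, PH02Gene06966 and PH02Gene02851 were highest in group 9, PH02Gene42767, PH02Gene09519 and PH02Gene40438 in group 11, and PH02Gene06339 and PH02Gene43216 in group 1. The genes were chosen by their expression in clusters of the same cells, so their highest groups are not independent of that choice. With TMM-scaled totals, 8 of the 10 genes kept their group, PH02Gene42767 was highest in group 7 and PH02Gene43216 in group 11.

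The widest range among them was that of PH02Gene40438, which averaged 45.8 ± 2.47 CPM in group 11 and 2.30 ± 1.13 CPM in group 6 (SD, n = 2 each). PH02Gene15191 had 202 and 163 CPM in group 9, against 99.4 and 105 CPM in group 0. PH02Gene02851 had 93.7 and 100.2 CPM in group 0, its second-highest group on the scale of total UMIs, and 39.0 and 36.3 CPM in group 1. With TMM-scaled totals its second-highest group was group 2. PH02Gene02851 was at least 2-fold higher in group 0 than in group 1 in both replicates. PH02Gene06966 had log2 differences of 1.16 and 0.95 in this comparison, and 1.26 and 1.09 with TMM-scaled totals.

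PH02Gene06339 carries the same description as PH02Gene41491, a calcium-dependent protein kinase 15, and had another distribution in the ground-tissue groups. It had 207 and 203 CPM in group 0, against 287 and 250.2 CPM in group 1, a log2 difference of -0.39, while that of PH02Gene41491 was 1.28. With TMM-scaled totals the values were -0.27 and 1.40. Against group 10, where PH02Gene41491 was lowest, PH02Gene06339 differed by a log2 of 0.11 and -0.03. Reads shared by genes of near-identical sequence could affect such pairs, and how they were counted is not given in the sources used here.

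**Figure D5:**
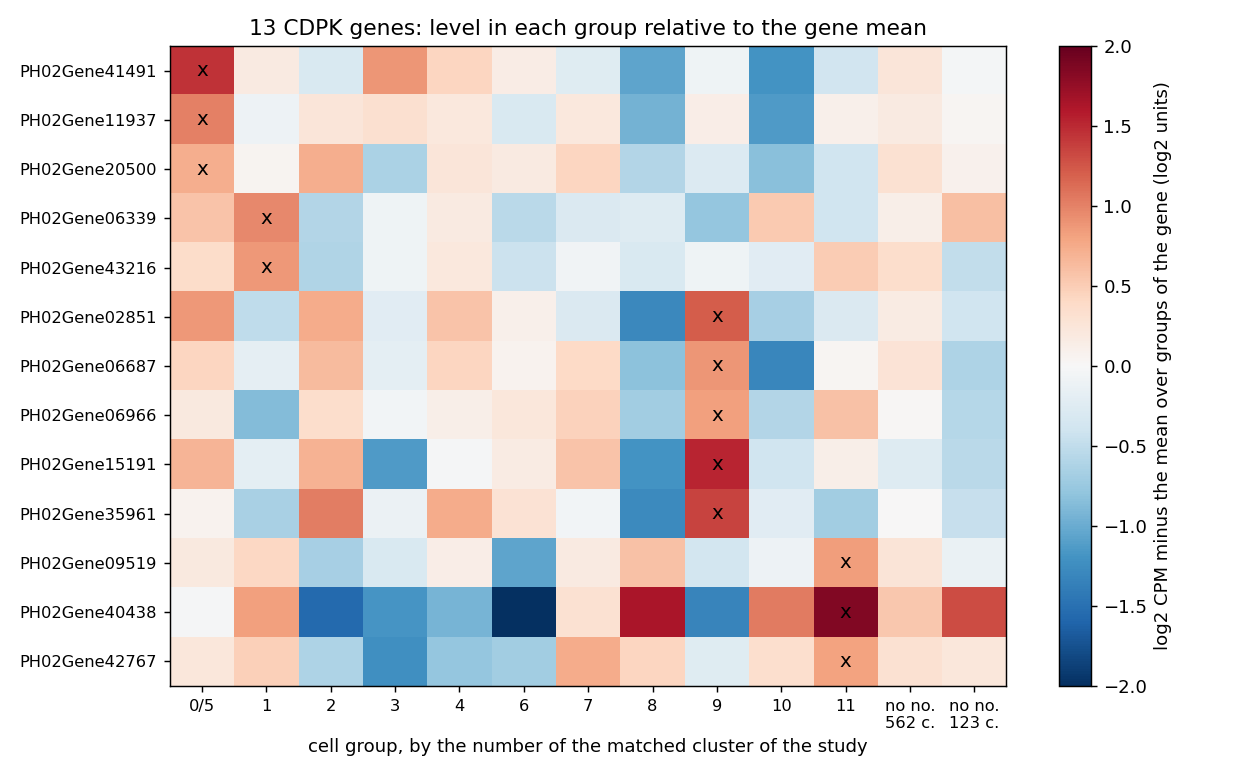
The 13 CDPK genes (vertical axis) in 13 cell groups (horizontal axis, by matched cluster number), coloured by the log2 CPM minus the mean of that gene over the groups, with x at its highest group on the scale of total UMIs. The first 3 genes are highest in group 0 (0/5), and the other 10 in groups 1, 9 and 11; with TMM-scaled totals PH02Gene11937, PH02Gene20500, PH02Gene42767 and PH02Gene43216 have another highest group.

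Likeness of patterns was measured by Pearson's r of log2(CPM + 1) over 26 sums, the 13 groups in 2 replicates, which share libraries and differ in depth. PH02Gene41491 and PH02Gene11937 had r = 0.77, and PH02Gene11937 had rank 89 of 18156 genes in likeness to PH02Gene41491. PH02Gene20500 had r = 0.63 with PH02Gene11937 and r = 0.46 with PH02Gene41491. PH02Gene06687, which is not among the members, had r = 0.76 to PH02Gene11937, r = 0.63 to PH02Gene20500 and r = 0.56 to PH02Gene41491. On this scale of total UMIs, the 3 members thus did not form a closer set as a whole, though PH02Gene11937 was closer to PH02Gene41491 than PH02Gene06687 was. No r is given with TMM-scaled totals.

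The genes most like PH02Gene41491 were PH02Gene20493 (r = 0.91), PH02Gene30150, PH02Gene40010, PH02Gene19351 and PH02Gene13535. For PH02Gene11937 they were PH02Gene28396 (r = 0.94), PH02Gene19093, PH02Gene19236, PH02Gene29147 and PH02Gene05561, the last described as a probable leucine-rich repeat receptor-like kinase. For PH02Gene20500 they were PH02Gene02950 (r = 0.90), PH02Gene34575, described as a seed imbibition protein, PH02Gene19986, PH02Gene43797, described as a triacylglycerol lipase, and PH02Gene11640. No gene was in more than 1 of the 3 lists.

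Of 16 other calcium genes, 6 were highest in group 0 and 8 in group 1 on the scale of total UMIs, and 3 and 5 with TMM-scaled totals. They came from a list of genes of Clusters 0, 1 and part of 2, so the groups were part of the choice. Against group 10, 9 of the 16 were at least 2-fold higher in group 0 and 0 were lower, beside 7.8% and 25.4% of all genes tested. Against group 1, 3 were higher and 3 lower, beside 2.78% and 8.14% of all genes. PH02Gene48993, described as a respiratory burst oxidase, an enzyme family that makes superoxide at the plasma membrane, had 977 and 1049 CPM in group 0, against 350.4 and 355 CPM in group 10. It was highest in group 7 with TMM-scaled totals. PH02Gene02229, described as a calcium-transporting ATPase, which moves calcium out of the cytosol, averaged 346 ± 20.1 CPM in group 0 and 21.5 ± 5.94 CPM in group 9 (SD, n = 2 each). PH02Gene28664, described as a CBL-interacting protein kinase, averaged 160.1 ± 2.74 CPM in group 0 and 184 ± 11.3 CPM in group 1.

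The highest group of PH02Gene41491 changed when only cells with at least 2000 UMIs were clustered, which changed both the cells and the groups. Of the 4005 cells of group 0, 212 had at least 2000 UMIs. In that clustering, Clusters 0, 1 and 5 were matched to the same group of 694 cells, of which 144 came from group 0, and PH02Gene41491 had 24.5 CPM there. Its highest level was then in a group without a match. In the deepest of the 3 equal parts of group 0, with medians of 1416.5 and 1533 UMIs, PH02Gene41491 had 64.7 and 78.4 CPM. Most cells of that part lay below 2000 UMIs, so these values and the 24.5 CPM come from unlike cells.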

How the data were processed

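Protoplasts of basal root tips from 2 biological replicates were measured. The authors demultiplexed and aligned the reads with Cell Ranger 5.0.1 and STAR, and the deposited values are raw UMI counts per gene and barcode, without normalization. The genome version is not given in the sources used here. Cells with more than 500 genes were kept. Mitochondrial genes cannot be told from the identifiers, so the study's filter on them was left out and more cells were kept than in the study. No doublet caller was run and no doublets were removed. Seurat 5.3.0 (R 4.3.3) log-normalized the counts and clustered the merged replicates on 2000 variable genes and 20 principal components at a resolution of 0.8, leaving 41 CDPK and marker genes out, of which 20 would have been variable. Each cluster of the study was paired with the group in which its markers, as z-scores of log2(CPM + 1), had the highest mean. UMIs were summed per group and replicate, and edgeR 4.0.16 gave the TMM factors. Python 3.11.15, numpy 2.4.6, scipy 1.17.1, pandas 2.3.3 and matplotlib 3.10.9 did the rest. In comparisons, a count under 3 was set to 3. Named genes were the members, the other CDPK and calcium genes of lists copied from the study's tables, and the 5 genes most like each member among those with at least 200 UMIs. Members and lists were chosen with earlier results of these data known. Intervals (exact Poisson for levels, 95%) cover counting error only, and spreads are those between 2 libraries. Alternatives were other resolutions, 30 principal components, the left-out genes included, a floor of 2000 UMIs per cell, the deepest 5% of cells left out, each replicate left out, CPM per cell, TMM and thinning.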

Additional observations from a re-analysis of the deposited data

How the results depend on the processing

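Of 39 levels of the 3 genes in matched clusters, 0 to 6 moved by over 1.5 times under each of 11 alternatives. The log2 ratio of the highest to the lowest group was 2.65 for PH02Gene41491, against 2.04 with only cells of at least 2000 UMIs, 3.43 with the mean CPM per cell and 2.47 to 2.53 with a replicate left out. Thinning to 500 UMIs gave PH02Gene41491 no value, since its lowest group was then at 0. For PH02Gene11937 it was 2.14, against 2.74 at resolution 1.0, 1.65 with cells of at least 2000 UMIs, 1.69 after thinning and 1.96 to 2.35 with a replicate left out. For PH02Gene20500, whose replicates differed little, it was 1.56, against 1.37 at resolution 0.6, 1.81 at resolution 1.0, 1.35 with 30 principal components, 1.37 with the left-out genes included, 1.64 with cells of at least 2000 UMIs, 1.84 without the deepest 5% of cells, 1.43 with the mean CPM per cell, 2.40 with TMM, 1.73 after thinning and 1.52 to 1.53 with a replicate left out. The number of members highest in the match of Cluster 0 was 3, but 1 at resolution 1.0, 1 with cells of at least 2000 UMIs, 1 with TMM, 2 with the left-out genes included, without the deepest 5% of cells, with the mean CPM per cell and after thinning, and 2 to 3 with a replicate left out. PH02Gene20500 was highest in the match of Cluster 2 in all of these but resolution 1.0 and the clustering without replicate 1. The lowest group changed under some alternatives, though not with TMM. For example, PH02Gene41491 was lowest in the match of Cluster 12 with 30 principal components, and PH02Gene11937 in that of Cluster 8 after thinning. PH02Gene20500 was lowest in the match of Cluster 8 with the mean CPM per cell, and in that of Cluster 3 after thinning. At resolution 0.6 and without replicate 1, all 3 genes were lowest in a group matched to both Cluster 8 and Cluster 10. Without replicate 2 this held for PH02Gene41491 and PH02Gene11937, and with cells of at least 2000 UMIs for PH02Gene11937 and PH02Gene20500. In these settings Cluster 10 of the ground tissue was not apart from Cluster 8 of the root cap. The cause of these changes was not tested. Shares of cells without thinning were 12.8%, 32.5% and 59.8%. With a minimum of 1000 UMIs, 3 of the 5 genes most like PH02Gene11937 remained. No paired analysis was possible because the series has a single group and no result comes from a test. Depth limits the small groups most: 3 to 64 UMIs per sum stand behind the levels of matched Cluster 10.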
